A study of Mus musculus with 6 samples.

Results

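The 10 genes described here encode kinases of the mitogen-activated protein (MAP) kinase cascades: Map3k8, Map3k5, Map3k7, Map2k1, Map2k3, Map2k6, Mapk14, Mapk6, Mapkapk2 and Mapkapk3. They were chosen by symbol from the 54532 genes of the expression table, all 10 were found there, and all 10 were among the 12755 genes tested. The choice was made with earlier results of these data known. Counts, medians and shares of the members set beside those of other genes are therefore descriptions. The measurements are RNA-seq levels in bone-marrow-derived macrophages (BMDMs), which are macrophages grown in culture from mouse marrow with medium conditioned by L929 fibroblasts. All cells came from wild-type C57BL/6 mice. One group was left untreated (Untr), one received 100 ng/ml lipopolysaccharide (LPS), a bacterial surface molecule sensed by macrophages, for 2 h, and one received 5 mM metformin, a biguanide diabetes drug, for 6 h before an identical dose and time of LPS (Met + LPS). Each group has 2 libraries, and no group with metformin alone was analysed here, so that metformin is compared only in the presence of LPS. The labels do not say whether the 2 libraries of a group come from separate mice, and p-values therefore measure only the spread between these libraries, which may be technical.

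MAP kinase cascades pass a signal through kinases that phosphorylate one another in turn: a MAP3K activates a MAP2K, the MAP2K activates a MAP kinase, and the MAP kinase activates further kinases. In macrophages, LPS bound by the receptor TLR4 starts the ERK, JNK and p38 branches within minutes, and these control the transcription, mRNA stability and translation of cytokines. The activity of the cascades is set by phosphorylation of the proteins, which RNA levels do not show.

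The levels are given as TPM, which are read counts per length of gene scaled to a common total, and can be compared between genes. Reads recovered from the TPM values numbered 25457016 to 30762754 per library. Since TPM sum to the same total in every library, a large rise of some genes lowers all others. The median log2 fold change of all tested genes was -0.48 for LPS vs. untreated, and -0.01 after the libraries were rescaled to a typical gene (median-ratio rescaling). It was -0.03 and -0.02 for Met + LPS vs. LPS. All 8 macrophage markers reached 1 TPM, at 12.9 to 35840 TPM, and their sums were 44620 and 46600 in the untreated, 37900 and 37410 in the LPS and 30880 and 30950 TPM in the Met + LPS libraries. Neutrophil markers, 4 of 5 of which reached 1 TPM, summed to 27.2 and 30.9, 24.4 and 25.8, and 42.0 and 40.2 TPM, with Ly6g close to 0. Dendritic cell markers, 2 of 4 at 1 TPM, summed to 0.536 and 0.676, 2.40 and 2.20, and 2.80 and 2.12 TPM, and B cell markers, 1 of 4, to 3.18 and 2.63, 1.47 and 1.55, and 0.777 and 0.766 TPM. No marker of T cells, fibroblasts or erythroid cells reached 1 TPM in 2 libraries. The part of these shifts in the results below was not tested. In bulk RNA, fewer cells that express a gene and less RNA per cell cannot be told apart.

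The promoters of 3 members are shown because these genes moved differently: Mapkapk2 had the highest level of the 10, Map2k3 rose with LPS and was lower with metformin, and Map3k7 had the smallest change with LPS under either scaling. The 100 bases before the start of transcription are from RefSeq (GRCm38.p6), 5′ to 3′ on the strand of the gene, with matches to the motifs searched in capitals.
Mapkapk2, chr1:131097844-131097943, minus strand: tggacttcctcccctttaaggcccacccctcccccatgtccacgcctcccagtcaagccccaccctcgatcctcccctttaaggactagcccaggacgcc
Map2k3, chr11:60931954-60932053, plus strand: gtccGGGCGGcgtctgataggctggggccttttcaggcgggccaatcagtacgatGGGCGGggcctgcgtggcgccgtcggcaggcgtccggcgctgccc
Map3k7, chr4:31964007-31964106, plus strand: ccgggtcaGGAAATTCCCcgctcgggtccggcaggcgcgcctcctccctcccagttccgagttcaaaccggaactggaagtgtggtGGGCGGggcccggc

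The capitals are the GC box GGGCGG in Map2k3 and Map3k7, and a kappaB motif, the type of site bound by NF-kappaB, in Map3k7. Windows of 250 bases before to 50 after each start were searched on both strands. Of the 10 members, 9 had such a window, with 14 windows in all. The member without a window, which was not searched, is either Map3k8 or Mapkapk3, the members for which no motif was found. A GC box was in 9 of the 14 windows (64.3%), against 35.6% of 32817 promoters. The kappaB motif was in the window of Map3k7 alone (7.14% of windows, against 8.46% of promoters), and the AP-1 motif TGANTCA in that of Map2k6 alone (7.14% against 7.81%). The cAMP response element TGACGTCA and the C/EBP-ATF motif TGATGCAA were in 0 of the 14 windows, against 1.79% and 0.896% of promoters. A TATA box (TATAAA) was in 1 window, against 13.6%. These matches are descriptions of the letters in the windows.

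LPS raised 8 of the 10 kinases and lowered 2 at an adjusted p under 0.01. Of all tested genes, 16.2% were called higher and 60.1% lower. The median log2 fold change of the members was 0.81, against -0.48 over all tested genes. After rescaling, 9 members were higher and 1 lower, against 30.6% and 27.6% of all genes, and the member that changed direction was Map3k7. At the cut-off of a log2 fold change of 2, which the study used, 2 members passed in TPM, Map3k8 and Mapkapk2, both higher, against 3.72% of all genes higher and 2.37% lower. The study took its fold changes from DESeq2 on read counts, and after rescaling Map3k5 also passed here (2.30, limma adjusted p = 5.57e-08). The share of all genes past this cut-off after rescaling was not counted. The libraries of the compared groups did not overlap for any member (8 higher, 2 lower), as for 20.1% of all genes higher and 71.5% lower. One member, Map2k6, reached 1 TPM only in the untreated libraries, so that it could enter the test only through the group in which it is high, and these counts include it.

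Metformin pretreatment left 7 of the 10 at a lower level than LPS alone, with 0 higher and 3 not called, against 18.0% of all tested genes lower and 14.5% higher. The median log2 fold change of the members was -0.36, against -0.03 over all genes. Rescaling left the counts at 7 and 0, against 17.4% and 15.6% of genes. The study applied its cut-off of 0.7 to DESeq2 fold changes of read counts. At this cut-off in TPM, only Map3k8 passed, against 4.09% of genes lower and 4.19% higher, and Map2k3 fell just short of it (-0.698). With limma voom on recovered reads, added after the data were seen, Map2k3 (-0.706, adjusted p = 5.15e-11) also passed. Map2k6 (-1.59, adjusted p = 0.00359) passed there too, on few reads. The share of all genes past this cut-off with voom was not counted. Met + LPS and LPS libraries did not overlap for 9 members, 8 lower and 1 higher (Map3k7), against 40.0% and 33.8% of genes. The comparison shares its LPS libraries with the one above, so that a high value in these libraries enters both with opposite sign.

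**Figure D1:**
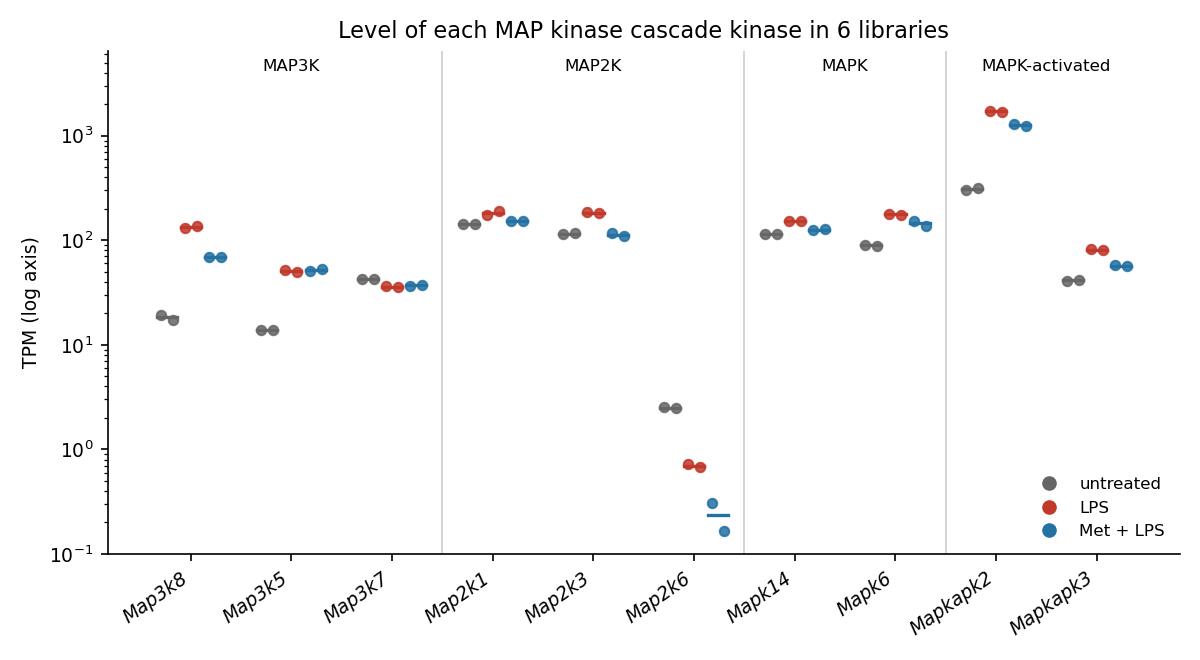
TPM of each member in the 6 libraries on a log axis, grouped by place in the cascade, with dots for libraries and bars for group means. Mapkapk2 stands highest in every group, with means of 308, 1706 and 1257 TPM, and Map2k6 lowest, with 2.50, 0.701 and 0.236 TPM.

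Among the MAP3Ks, Map3k8 encodes TPL2 (also COT), which activates the MEK-ERK branch downstream of TLR4 and is held inactive in resting cells by the NF-kappaB precursor p105. Its level was 19.4 and 17.3 TPM in the untreated libraries, 130 and 136 TPM with LPS, and 69.0 and 69.1 TPM with Met + LPS. The 3 groups did not overlap, with LPS highest and Met + LPS between. The mean was 7.23-fold higher with LPS than in untreated cells, a log2 fold change of 2.79 ± 0.06 (SE, n = 2 per group, limma adjusted p = 8.01e-08). With metformin it was 51.9% of the LPS level, a log2 fold change of -0.94 ± 0.06 (adjusted p = 5.76e-05), and it was still 3.75-fold above untreated. On the log2(TPM + 1) scale this was the largest change of any member in both comparisons, while in Met + LPS vs. LPS the ratio of mean TPM was lower for Map2k6, at 33.6% of the LPS level, on few reads.

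Map3k5 encodes ASK1, a MAP3K of the JNK and p38 branches that thioredoxin binds and inhibits. Its gene is on chromosome 10 (19934472 to 20142753, GRCm38). Its level was 14.0 and 13.7 TPM untreated, 51.7 and 50.3 TPM with LPS, and 50.8 and 53.7 TPM with Met + LPS. LPS raised it 3.68-fold (log2 1.81 ± 0.05, adjusted p = 1.99e-07). The LPS and Met + LPS libraries overlapped, with a log2 difference of 0.04, a 95% interval of -0.08 to 0.15 and an adjusted p of 0.563. The difference was -0.0036 without Met + LPS replicate 2.

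Map3k7 encodes TAK1, which TLR4 signaling uses to activate both the MAP2Ks of JNK and p38 and the IKK complex. On chromosome 4 (31964097 to 32023467), its level was 42.6 and 42.5 TPM untreated, 36.6 and 35.4 TPM with LPS, and 36.9 and 37.2 TPM with Met + LPS. The untreated libraries were the highest, and the Met + LPS libraries were slightly above both LPS libraries. The log2 fold change with LPS was -0.24 ± 0.04 (adjusted p = 0.00121) in TPM, but 0.28 (adjusted p = 0.000709) after rescaling, so that its direction depends on the scaling. In TPM, the call was lost without either untreated library (adjusted p = 0.0115 and 0.0107, log2 -0.23 and -0.24). Between Met + LPS and LPS the log2 difference was 0.04, with an interval of -0.05 to 0.14 (adjusted p = 0.429). Of its 31-base words, 91.6% occur in no other gene, and the predicted gene Gm8188 shares most of the rest.

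Relative to Map3k7 in the same library, which does not depend on the scaling of libraries, Map3k8 was at 0.456 and 0.408 in untreated cells, 3.57 and 3.83 with LPS, and 1.87 and 1.86 with Met + LPS. Map3k8 thus went from below Map3k7 to above it in each LPS-treated library. The exact two-sided permutation p of each such ratio was 0.333, the smallest that 2 against 2 libraries allow. Together, the 3 MAP3K members made up 10.7% to 11.1% of the TPM of 27 MAP3K genes in untreated cells, 34.2% in both LPS libraries, and 26.5% and 27.7% with Met + LPS.

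Among the MAP2Ks, Map2k1 encodes MEK1, which activates ERK1 and ERK2. The gene spans 64185770 to 64253631 of chromosome 9. Its level was 144 and 143 TPM untreated, 175 and 189 TPM with LPS, and 153 and 154 TPM with Met + LPS, without overlap between groups. The 2 LPS libraries were the farthest apart. Met + LPS differed from LPS by -0.24 ± 0.04 on the log2 scale (adjusted p = 0.00423), and this call was lost when any library except LPS replicate 1 was left out (adjusted p = 0.0142 to 0.0263), when the fit used the compared groups only (0.0181), without a trend (0.0206) and without a filter (0.0162). LPS against untreated gave 0.34 ± 0.04 (adjusted p = 0.000333).

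Map2k3 encodes MKK3, one of the kinases that activate p38. It lies on chromosome 11 (60932033 to 60952811), and its promoter with 2 GC boxes is shown above. Its level was 114 and 117 TPM untreated, 187 and 181 TPM with LPS, and 117 and 109 TPM with Met + LPS. Both LPS libraries were above all others, while untreated and Met + LPS libraries overlapped. LPS raised it 1.59-fold (log2 0.66 ± 0.05, adjusted p = 1.60e-05). With metformin it was 61.5% of the LPS level (log2 -0.70 ± 0.05, adjusted p = 6.81e-05). Met + LPS against untreated gave -0.04 (adjusted p = 0.484) in TPM but 0.50 (adjusted p = 7.39e-05) after rescaling, and 0.02 without Met + LPS replicate 2, so that whether Map2k3 stayed above untreated cells depends on the scaling.

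Map2k6 encodes MKK6, the close relative of MKK3 that also activates p38. It lies on chromosome 11 (110399122 to 110525522). Its level was 2.52 and 2.47 TPM untreated, 0.725 and 0.676 TPM with LPS, and 0.307 and 0.164 TPM with Met + LPS. These levels rest on 66 and 61, 19 and 17, and 8 and 5 reads. The groups did not overlap and untreated cells were highest. Since it entered the test only through the untreated group, its difference from untreated is given as a description. The log2 fold change with LPS was -1.04 ± 0.14, and since the scale adds 1 TPM, it understates the change of so low a gene: limma voom on the recovered reads, an alternative added after the data were seen, gave -1.79. Met + LPS against LPS gave -0.46 ± 0.14, which was not called (adjusted p = 0.0312), and -1.59 with voom (adjusted p = 0.00359).

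The ratio of these 2 activators of p38 within a library differed between the groups. Map2k3 stood at 45.4 and 47.3 times Map2k6 in untreated, 258 and 267 times in LPS and 381 and 662 times in Met + LPS libraries. The step from LPS to Met + LPS rests on the few Map2k6 reads, and it changed sign, from a log2 difference of 0.94 to -0.24 (-0.235), when 1 TPM was added to both genes. The step from untreated to LPS was 2.50 and kept its sign at 1.70. That step is also a description, since Map2k6 entered the test only through the untreated group and had 19 and 17 reads with LPS.

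Among the MAP kinases, Mapk14 encodes p38 alpha, the main p38 of macrophages. The gene spans 28691329 to 28748406 of chromosome 17. Its level was 114 and 114 TPM untreated, 152 and 152 TPM with LPS, and 126 and 127 TPM with Met + LPS. The 2 libraries of each group lay close together and the groups were apart. LPS gave a log2 fold change of 0.41 ± 0.03 (adjusted p = 2.32e-05) and Met + LPS against LPS -0.26 ± 0.03 (adjusted p = 0.000676). Against untreated, Met + LPS was higher by 0.14 ± 0.03 (adjusted p = 0.00391), a call lost without either untreated or either Met + LPS library (adjusted p = 0.0121 to 0.0237, log2 0.14 to 0.15). Among the 4 p38 genes, Mapk14 held 96.1%, 94.8% and 96.9% of the summed TPM in the untreated, LPS and Met + LPS groups.

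Mapk6 encodes ERK3, an atypical MAP kinase that MEK1 does not activate. From its locus on chromosome 9 (75369062 to 75410005), the level was 90.9 and 88.4 TPM untreated, 178 and 176 TPM with LPS, and 151 and 138 TPM with Met + LPS. The groups did not overlap, and the Met + LPS libraries differed from each other more than those of the other groups. LPS raised it 1.97-fold (log2 0.97 ± 0.05, adjusted p = 4.07e-06). Met + LPS differed from LPS by -0.29 ± 0.05 (adjusted p = 0.00348), and this call was lost when any library except Met + LPS replicate 1 was left out (adjusted p = 0.0109 to 0.0228, log2 -0.22 to -0.30). It was also lost with the compared groups only (0.0151), without a trend (0.0168) and without a filter (0.0158), so that the first and the last of these left 5 members lower in place of 7. Of its 31-base words, 94.7% are its own.

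Among the kinases activated by MAP kinases, Mapkapk2 encodes MK2, which p38 activates and which stabilizes cytokine mRNAs by phosphorylating proteins that bind AU-rich elements. The gene spans 131053700 to 131097826 of chromosome 1. Its level was 302 and 314 TPM untreated, 1728 and 1683 TPM with LPS, and 1288 and 1226 TPM with Met + LPS. LPS libraries were highest, Met + LPS libraries between, and untreated libraries far below. LPS raised it 5.54-fold (log2 2.47 ± 0.04, adjusted p = 2.29e-08). With metformin it was 73.7% of the LPS level (log2 -0.44 ± 0.04, adjusted p = 0.000225) and 4.08-fold above untreated.

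Mapkapk3 encodes MK3, a close relative of MK2 with overlapping substrates. It lies on chromosome 9 (107254927 to 107289877). Its level was 40.9 and 41.6 TPM untreated, 81.8 and 80.4 TPM with LPS, and 58.1 and 56.3 TPM with Met + LPS. The order of groups was that of Mapkapk2, without overlap. LPS raised it 1.97-fold (log2 0.96 ± 0.04, adjusted p = 1.37e-06), and with metformin it was 70.5% of the LPS level (log2 -0.50 ± 0.04, adjusted p = 0.000122). Mapkapk2 was at 7.39 and 7.54 times Mapkapk3 in untreated libraries, 21.1 and 20.9 times with LPS, and 22.2 and 21.8 times with Met + LPS, so that the ratio stood apart in untreated cells, and Met + LPS and LPS differed by 0.06 on the log2 scale. Both members together held 37.5%, 82.8% and 76.9% of the TPM of 11 genes for kinases activated by MAP kinases, in untreated, LPS and Met + LPS libraries. In the same order, the MAP2K members held 58.3%, 63.2% and 58.9% of the TPM of 7 MAP2K genes. The MAP kinase members held 25.3%, 43.1% and 39.55% of that of 14 MAP kinase genes.

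**Figure D2:**
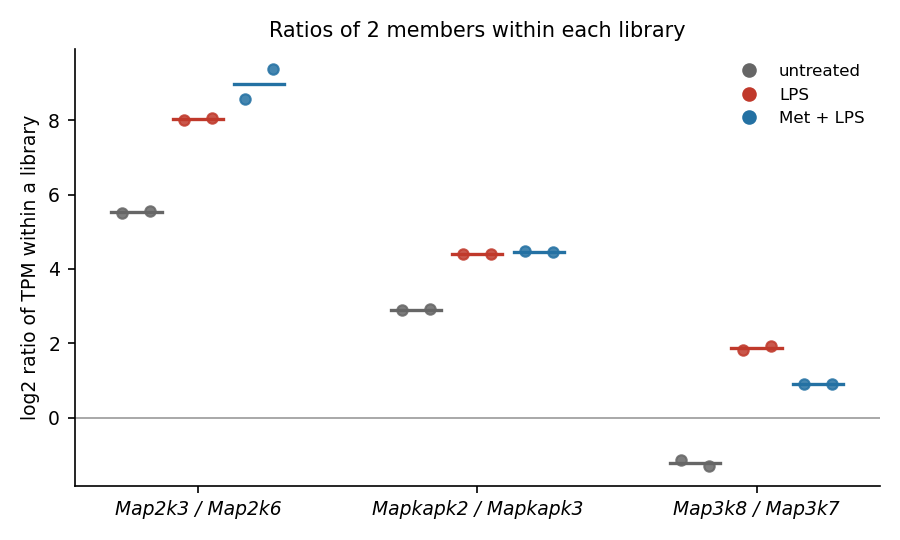
Log2 ratio of the TPM of a pair of members within each library, with dots for libraries and bars for group means. The mean log2 ratio of Mapkapk2 to Mapkapk3 was 2.90 untreated, 4.39 with LPS and 4.46 with Met + LPS, and that of Map3k8 to Map3k7 went from -1.21 to 1.89 and 0.90.

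Against untreated cells, Met + LPS left 6 members higher, 2 lower (Map3k7 and Map2k6, the latter tested only through its untreated level) and 2 not called (Map2k1 and Map2k3), against 16.3% of all genes higher and 58.8% lower. At a log2 fold change of 2, Mapkapk2 alone passed in TPM, against 3.18% of genes higher and 2.16% lower. Map3k8 (2.37) and Map3k5 (2.35) were also above 2 after rescaling, where the share of all genes was not counted. Libraries did not overlap for 7 members higher and 2 lower, against 21.7% and 69.1% of genes. After rescaling, 9 were higher and 1 was lower, against 33.4% and 29.7%, with Map3k7 at 0.33 and Map2k1 at 0.63 on the log2 scale. The comparison shares its untreated libraries with that of LPS. As a share of the log2 rise with LPS, the rise that remained with metformin was 102% for Map3k5, 82.2% for Mapkapk2, 70.3% for Mapk6, 66.4% for Map3k8, 48.1% for Mapkapk3, 35.2% for Mapk14 and 27.6% for Map2k1. For Map2k3 the share was -5.40% in TPM and 42.2% after rescaling. For Map2k1 and Mapk14 it was 73.3% and 73.1% after rescaling, so that the shares of members with a small rise depend on the scaling most.

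**Figure D3:**
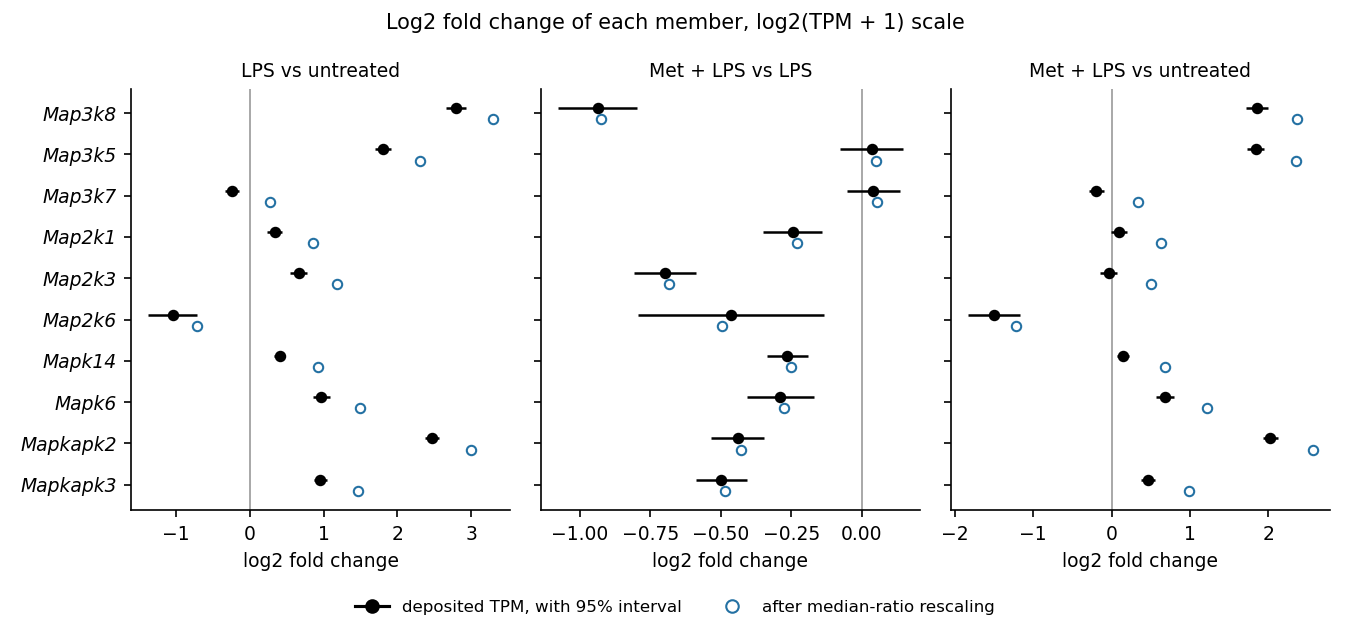
Log2 fold change of each member on the log2(TPM + 1) scale in the 3 comparisons, with filled dots and 95% intervals from the deposited TPM and open dots after median-ratio rescaling. In Met + LPS vs. LPS, 7 members were called lower under both scalings, whereas Map3k7 against untreated changes from -0.24 to 0.28 with LPS, and from -0.19 to 0.33 with Met + LPS, and Map2k3 with Met + LPS from -0.04 to 0.50.

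In every group Mapkapk2 was highest and Map2k6 lowest. Neighbours that did not differ beyond their spread were Map2k3 and Mapk14 in untreated cells, and Map2k3, Map2k1 and Mapk6 with LPS, while with Met + LPS no neighbours overlapped. Map3k8 went from below Map3k7 and Mapkapk3 in untreated cells to above both with LPS and with Met + LPS.

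Of 56 further kinases of these cascades, 44 were tested, and with LPS 9 were higher, 28 lower and 7 not called in TPM, beside 16.2% of all tested genes higher and 60.1% lower (14 higher and 16 lower after rescaling, beside 30.6% and 27.6%). Their median log2 fold change was -0.57, close to the -0.48 of all tested genes. With Met + LPS against LPS, 13 were higher, 9 lower and 22 not called, beside 14.5% and 18.0% of all genes, with a median of 0.07 beside -0.03. Without 1 library, each left out in turn, these counts were 6 to 9 higher and 4 to 6 lower. Mknk2, a kinase of the translation factor eIF4E, fell from 206 to 46.5 TPM with LPS (log2 -2.13, and -1.61 after rescaling) and stood at 85.6 TPM with Met + LPS, 0.87 above LPS. Map2k4, which activates JNK and p38, rose with LPS and was lower with metformin than with LPS alone. It was at 47.4, 120 and 87.0 TPM, with log2 changes of 1.32 and -0.45.

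Other kinases past the study's cut-offs in TPM with LPS were Map3k9 (log2 -2.09) and Map3k12 (-2.07), MAP3Ks of the JNK branch. After rescaling they were at -1.65 and -1.66, short of the cut-off, and Map3k12 had only 1.26 TPM with LPS. With metformin the other kinases past the cut-off were Mapk7 (0.71), which encodes ERK5, Map3k2 (0.71), which acts upstream of it, Rps6ka5 (-0.74), which encodes the histone kinase MSK1, and the p38 gene Mapk11 (-0.90). With LPS against untreated in TPM, Rps6ka5 and Mapk11 were called higher (log2 1.46 and 0.83), and Mapk7 and Map3k2 lower (-1.98 and -0.74). Map3k2 was not called there after rescaling (-0.24). Among the most abundant of each class, Map4k3 was at 121, 113 and 159 TPM and Map3k11 at 117, 108 and 72.3 TPM. With LPS their log2 changes of -0.09 and -0.11 were not called (adjusted p = 0.0941 and 0.118) and were 0.43 and 0.41 after rescaling, and with metformin Map4k3 was higher (0.49) and Map3k11 lower (-0.58) than with LPS. Mapk3, which encodes ERK1, was at 408, 303 and 273 TPM (log2 -0.43 with LPS, 0.10 after rescaling).

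**Figure D4:**
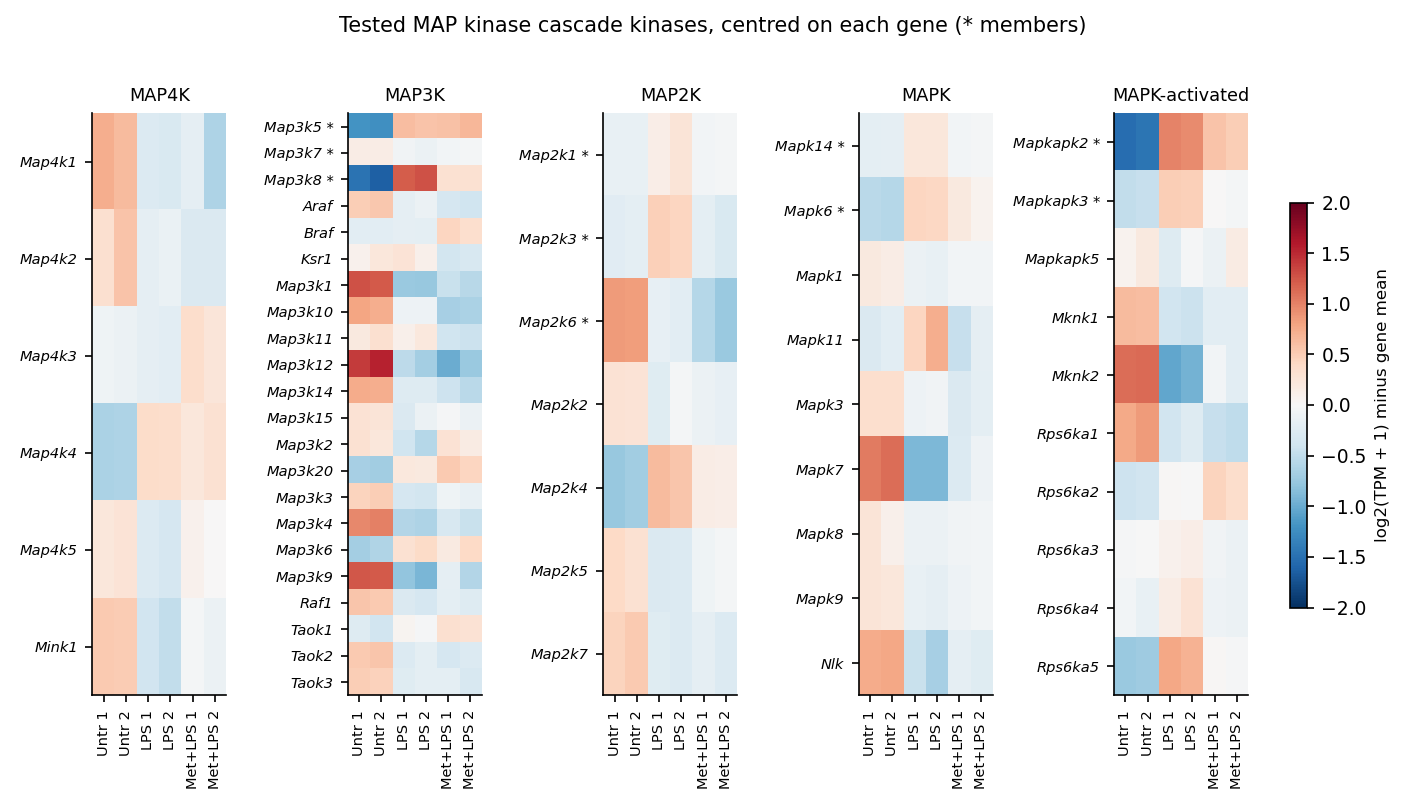
Log2(TPM + 1) minus the mean of each gene over 6 libraries (color, red above and blue below) for the 10 members (stars) and the 44 other tested cascade kinases, by place in the cascade. Of the 44 others, 28 fell with LPS in TPM, beside 60.1% of all tested genes, and 16 after rescaling, beside 27.6%.

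Of 13 genes for adaptors and binding partners, 12 were tested, and 5 were higher and 3 lower with LPS, beside 16.2% and 60.1% of all genes (8 and 1 after rescaling, beside 30.6% and 27.6%), and 1 higher and 3 lower with Met + LPS against LPS, beside 14.5% and 18.0%. Nfkb1, whose product p105 binds the kinase of Map3k8, rose from 36.6 to 220 TPM with LPS (log2 2.55) and was at 174 TPM with Met + LPS (log2 -0.33, adjusted p = 0.000802). Tab1, a partner of the Map3k7 kinase, fell from 35.1 to 5.11 TPM with LPS (log2 -2.56) and was at 4.88 TPM with Met + LPS. The listed Tab2 and Tab3 did not follow Tab1. Tab2 went the other way, with 112, 277.6 and 201.5 TPM (log2 1.30 with LPS and -0.46 for Met + LPS against LPS). Tab3 was not called in either comparison in TPM. After rescaling it was higher with LPS (log2 0.47, limma adjusted p = 0.0012), so that this call depends on the scaling. Txn1, the thioredoxin that binds the Map3k5 kinase, was at 536, 729 and 671 TPM (log2 0.44 with LPS).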

How the data were processed

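Single-end reads of poly-A RNA were mapped by the authors with STAR 2.6.1d to GRCm38, counted per gene with featureCounts (Subread 1.6.3; names and versions per the submitters' processing notes), and deposited TPM values, without pooling replicates. How counts became TPM is not given in the sources used here. Reads were recovered from TPM and GENCODE exon lengths: 96.8% to 97.2% of values under 2000 reads were whole within 0.05. Depth limits the precision of low genes, and counts cover counting error only.

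The 12755 genes that reached 1 TPM in 2 or more libraries entered a limma fit (version 3.58.1, R 4.3.3) of log2(TPM + 1), with a variance trend in eBayes, all 6 libraries in a fit (3 residual degrees of freedom), no covariate, and Benjamini-Hochberg adjustment over all tested genes, with a threshold of 0.01. The study's fold cut-offs were a second rule. Fold changes on this scale understate those of low genes. Ratios within a library used an exact permutation test. The script was tested on simulated data, in which missed changes were mostly those of genes with few TPM and false calls were somewhat more frequent than the threshold implies. Tables and plots used Python 3.11.15, pandas 2.3.3 and matplotlib 3.10.9.

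The members and lists were chosen with earlier results of these data known. Named beside the members were listed genes past the study's cut-offs, the most abundant of each class, and the 5 genes with the profile nearest to that of the member with the largest change on the log2(TPM + 1) scale. Tab2 and Tab3 were added beside Tab1. Alternatives tried were 0.1 as pseudocount, a 5 TPM minimum or none, median-ratio rescaling, the compared groups only, a replicate block, no trend, an adjusted p under 0.05, the fold cut-off, each library left out, and, added after seeing the data, voom on recovered reads with and without rescaling.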

Additional observations from a re-analysis of the deposited data

How the results depend on the processing

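With the study's fold cut-off applied in TPM, members higher and lower were 2 and 0 for LPS vs. untreated, 1 lower for Met + LPS vs. LPS, and 1 and 0 for Met + LPS vs. untreated. The 44 other kinases tested were 0 higher and 3 lower with LPS, beside 3.72% and 2.37% of all tested genes. For Met + LPS vs. LPS they were 3 higher and 2 lower, beside 4.19% and 4.09%. A minimum of 5 TPM, which removes Map2k6, rescaling, and voom with rescaling each left 1 member lower than untreated with LPS and with Met + LPS. Other kinases with LPS were 14 higher and 16 lower after rescaling, and 15 higher with rescaled voom. For Met + LPS vs. LPS they were 8 higher and 4 lower without a filter, 7 and 4 with the compared groups only, and 8 higher without a trend. Without 1 library, members lower ranged from 1 to 2 for LPS vs. untreated, 5 to 6 for Met + LPS vs. LPS and 1 to 2 for Met + LPS vs. untreated, and other kinases in Met + LPS vs. LPS from 6 to 9 higher and 4 to 6 lower. The log2 ratio of Map2k3 to Map2k6 changed by 1.70 with LPS and by -0.235 with metformin when 1 TPM was added. Directions reversed for Map3k7 with LPS (0.28 rescaled, 0.30 rescaled voom) and with Met + LPS vs. untreated (0.33 and 0.36), for Map2k3 in Met + LPS vs. untreated (0.50 rescaled, 0.52 rescaled voom, and from -0.0899 to 0.0178 without 1 library), and for Map3k5 in Met + LPS vs. LPS (from -0.0036 to 0.0741 without 1 library, below 0 without Met + LPS replicate 2). The cause was not tested. Of the 507 member log2 fold changes under an alternative, 445 kept direction and side of the threshold, 48 lost a call, 6 gained one and 8 reversed. The 8 are the reversals listed above.

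Same-numbered libraries did not deviate together over all tested genes (correlations -0.00365, 0.0284 and 0.00624). They also share a letter, A or B, in the sample titles, which do not say what it stands for. Correlations over all genes cannot show whether these libraries shared a preparation. The replicate block left 8 members higher and 2 lower with LPS, 7 lower with Met + LPS vs. LPS, and 6 and 2 against untreated, and 3956 against 4156 genes called in Met + LPS vs. LPS. The 5 to 66 reads of Map2k6 limit what can be said of it.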

Other observations

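The genes whose profile over the 6 libraries lay nearest to that of Map3k8, by Euclidean distance between centred log2(TPM + 1) values, were Lck (distance 0.149), Dusp16 (0.197), Plagl2 (0.212), Kctd12 (0.224) and Gbp4 (0.291). Lck, a tyrosine kinase best known from T cells, had group means of 0.854, 12.1 and 5.60 TPM in untreated, LPS and Met + LPS libraries, while the 4 T cell markers did not reach 1 TPM. Dusp16, a phosphatase of JNK and p38, had 9.12, 62.7 and 35.2 TPM. Plagl2, a zinc finger transcription factor, had 50.5, 321 and 175 TPM. The likeness was not tested.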
